A study of Mus musculus with 4 samples.

Results

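The 10 genes described here make, take up, break down or sense prostaglandins: Pla2g4a, Ptgs1, Ptgs2, Ptges, Ptges3, Ptgis, Slco2a1, Hpgd, Ptger2 and Ptger4. They were taken by name from a table of 50679 genes, and all 10 were found. Ptgs2 was chosen by its FPKM in 1 library, 211F 1, so its values are given as a description without a test. The 4 RNA libraries are of mammary tumour cells from mice with the polyoma middle T oncogene (PyMT), 2 with wild-type PCNA (WT) and 2 with PCNA 211F, named Y211F in the table's header. PCNA is the sliding clamp of DNA replication. All 4 libraries came from tumours of mice 10 weeks old, from which cells were taken with an EpCAM antibody and plated in medium with serum, with no drug treatment in the labels. The sources used here do not give the promoter that drives PyMT, whether mice carried 1 or both altered copies of Pcna, or whether tumours were pooled. Per the design text the libraries are independent repeats; nothing says that they came from separate animals, so p-values measure only the spread between libraries.

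Prostaglandins are short-lived lipid signals made from arachidonic acid. A phospholipase frees arachidonic acid from membranes, a cyclooxygenase converts it to the unstable intermediate PGH2, and terminal synthases turn PGH2 into PGE2, prostacyclin and other products. Secreted PGE2 acts on receptors of the same or neighbouring cells, until a transporter takes it up and a dehydrogenase inactivates it. In mammary tumours the inducible cyclooxygenase, the product of Ptgs2, and its product PGE2 have long been studied for their part in tumour growth and in the response of immune cells.

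The libraries differed in cell state before any comparison of genotype. All 10 epithelial markers on the list used here were lowest in WT 2. Their summed level there was 7.10 FPKM, against 3027 to 3471 for the other 3 libraries. FPKM is a fragment count divided by transcript length in kilobases and by library size. Krt14 alone held 1058 (WT 1), 1297 (211F 1) and 1722 FPKM (211F 2), so the sums hide differences among these libraries. The median marker level was 251 (WT 1), 0.578 (WT 2), 89.4 (211F 1) and 152 FPKM (211F 2). Epcam (77.3 FPKM), Cdh1 (102), Krt18 (178), Cldn7 (5.07), Esrp1 (17.4) and Grhl2 (9.17) were each lower in 211F 1 than in WT 1 or 211F 2. Krt8 and Krt14 in 211F 1 lay between WT 1 and 211F 2. Krt5 and Cldn4, 2 of the 10 markers, peaked in 211F 1. The labels call all 4 libraries luminal epithelial adenocarcinoma. WT 2 therefore goes against the epithelial part of its label. The difference of each member above the filter is also given without WT 2. Whether the other 3 libraries were luminal was not tested. The 10 mesenchymal markers summed to 4634 FPKM (WT 2) and 5052 (211F 1), compared with 525 (WT 1) and 215 (211F 2). The 9 fibroblast markers summed to 1078 FPKM in WT 2 and to between 6.31 and 46.4 in the other libraries. The 8 smooth muscle and pericyte markers summed to 702 FPKM (211F 1), 110 (WT 2), 1.17 (WT 1) and 0.767 (211F 2). Of other cells that make or clear prostaglandins, 9 endothelial markers summed to between 0.330 and 2.17 FPKM, 7 mast cell markers to at most 1.86 and 6 platelet markers to between 2.24 and 6.65. The 9 macrophage and myeloid markers summed to 69.8 FPKM in WT 1, of which Cd14 was 67.2, and to between 7.83 and 15.1 in the other libraries. The leukocyte gene Ptprc, on the same list, was at most 0.0180 FPKM. In bulk RNA, fewer cells of a type and less RNA per cell cannot be told apart.

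The promoters of 3 members are shown first. They are Ptgs2, chosen by its level in 211F 1, its chromosome 1 neighbour Pla2g4a, also highest there, and Ptgs1, which was nearly level. The windows run from 250 bases before to 50 bases after the RefSeq start (GRCm38.p6, gene strand, 5′ to 3′). They lie at chr1:150099781-150100080 (plus strand) for Ptgs2, chr1:149961241-149961540 (minus strand) for Pla2g4a and chr2:36230176-36230475 (plus strand) for Ptgs1. Capitals mark matches, on either strand, to 7 short motifs named in the paragraph after the sequences.
Ptgs2: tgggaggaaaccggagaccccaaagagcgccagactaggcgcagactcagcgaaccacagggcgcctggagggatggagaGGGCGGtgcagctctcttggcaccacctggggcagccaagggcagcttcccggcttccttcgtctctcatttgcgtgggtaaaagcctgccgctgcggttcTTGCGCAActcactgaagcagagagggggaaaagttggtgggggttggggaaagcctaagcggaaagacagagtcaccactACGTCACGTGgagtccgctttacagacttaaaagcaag
Pla2g4a: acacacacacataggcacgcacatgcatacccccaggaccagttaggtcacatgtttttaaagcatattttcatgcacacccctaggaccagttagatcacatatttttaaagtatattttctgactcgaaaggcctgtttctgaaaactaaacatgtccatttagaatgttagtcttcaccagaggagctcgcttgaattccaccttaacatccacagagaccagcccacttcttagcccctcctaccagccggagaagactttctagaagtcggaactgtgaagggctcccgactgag
Ptgs1: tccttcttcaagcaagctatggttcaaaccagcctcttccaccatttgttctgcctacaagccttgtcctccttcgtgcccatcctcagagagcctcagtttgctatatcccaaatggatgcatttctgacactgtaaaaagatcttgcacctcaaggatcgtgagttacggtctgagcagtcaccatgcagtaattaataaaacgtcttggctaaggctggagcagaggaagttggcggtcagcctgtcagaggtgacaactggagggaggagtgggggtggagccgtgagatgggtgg

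The Ptgs2 window held 4 matches, and the printed windows of Pla2g4a and Ptgs1 held none. RefSeq has another Pla2g4a start 38851 bases inside the gene; its window (chr1:149922390-149922689, not printed) held the TATA box letters at -200 to -195 and the letters CCAAT at 10 to 14. Bases are counted from 1 at the RefSeq start, with negative numbers before it. The core of the cAMP response element, ACGTCA, spanned bases 13 to 18 of Ptgs2, and 7.51% of 32817 RefSeq promoter windows of this length hold it. The E-box, with the letters CACGTG, spanned bases 17 to 22 and is held by 7.15% of windows. These matches share a pair of bases, and 0.0975% of windows hold them in this overlapping form. The C/EBP palindrome TTGCGCAA lay at -69 to -62, and 0.183% of windows hold it. The GC box, GGGCGG, lay at -170 to -165 and occurs in 35.6% of windows. The remaining searches found nothing in these 3 windows: the AP-1 letters TGANTCA occur in 7.81% of all windows, the TATA box letters TATAAA in 13.6%, and the letters CCAAT in 37.4%. A match describes the letters only, and a window without a match says nothing about the factor.

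Of the 10 genes, 7 reached the mean of 1 FPKM required for the test between genotypes, and Ptgis, Hpgd and Ptger2 did not. Ptgs2 is among the 7 but is given no test, and none of the other 6 passed. The test was run with limma on log2(FPKM + 1) over 12767 genes, and it called 0 genes (0% of those tested) at a Benjamini-Hochberg adjusted p of 0.05. The unadjusted p was under 0.05 for 241 genes (1.89%), of which 0 were among these 6 members. Of the 7, 5 were highest in 211F 1, which was the highest library for 2857 of all 12767 genes tested. Ptgs2 is among these 5 by choice. Ptgs2 and Pla2g4a were at least 1 log2 unit above each other library in 211F 1, as were 2.67% of all genes tested; nothing is read from this for Ptgs2.

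**Figure D1:**
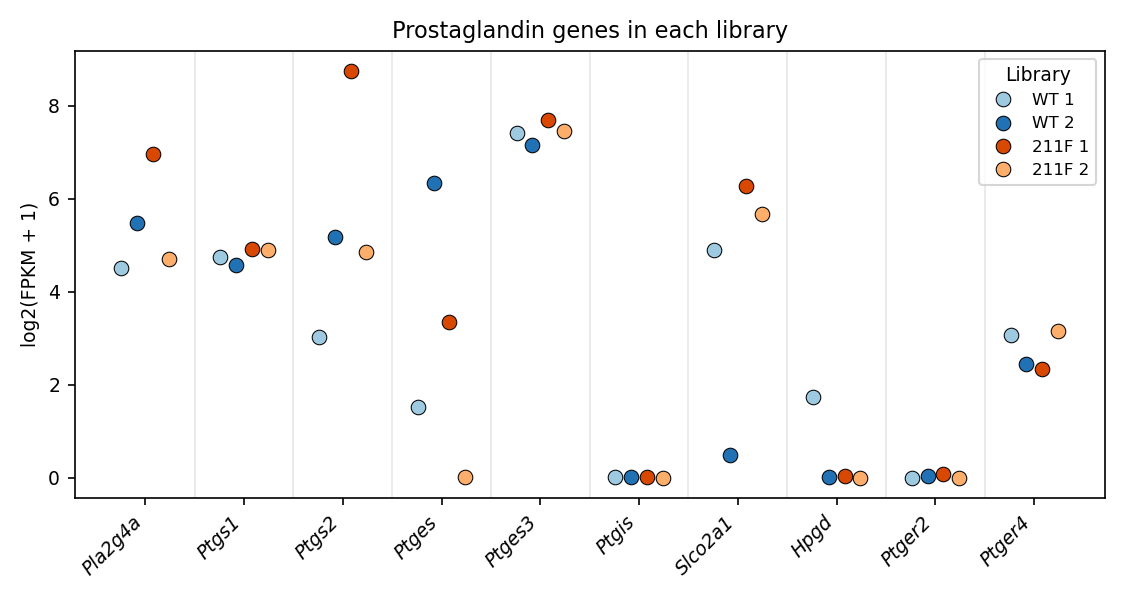
Level of each of the 10 prostaglandin genes in the 4 libraries, as log2(FPKM + 1); each point is 1 library. Ptgs2 and Pla2g4a are highest in 211F 1, Ptges is highest in WT 2, Slco2a1 is near 0 in WT 2 alone, and Ptgis, Hpgd and Ptger2 lie near 0 in at least 3 libraries.

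Pla2g4a (ENSMUSG00000056220; GRCm38 chromosome 1, 149829618 to 149961290, minus strand) encodes the cytosolic phospholipase A2 that releases arachidonic acid from membrane lipids. It was at 21.8 (WT 1), 43.4 (WT 2), 124 (211F 1) and 25.3 FPKM (211F 2). The level in 211F 1 was 2.84 times that of the next library, WT 2, while 211F 2 lay between both WT libraries, so the groups overlapped. The difference of 211F minus WT was 0.85 ± 0.89 on the log2(FPKM + 1) scale (SE, n = 2 each; limma adjusted p = 0.9999). Without 211F 1 it turned to -0.27, and without WT 2 it was 1.33.

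Of the cyclooxygenase genes, Ptgs1 was nearly level and Ptgs2 was high in 1 library. Ptgs1 (ENSMUSG00000047250; chromosome 2, 36230426 to 36252272, plus strand), the form most tissues express steadily, was at 25.8 (WT 1), 23.0 (WT 2), 29.4 (211F 1) and 28.8 FPKM (211F 2). Its highest level was 1.28 times its lowest, and 90.7% of the genes tested spanned at least as wide a range. Both 211F libraries lay above both WT libraries, by 0.25 ± 0.23 log2 units (SE; limma adjusted p = 0.9999), which is close to the error of the fit, and by 0.17 without WT 2.

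Ptgs2 (ENSMUSG00000032487; chromosome 1, 150100031 to 150108227, plus strand), the form induced by growth factors and inflammatory signals, was at 7.20 (WT 1), 35.4 (WT 2), 429 (211F 1) and 28.1 FPKM (211F 2). The level in 211F 1 was 12.1 times that of WT 2 and 59.6 times that of WT 1. By level, Ptgs2 stood at rank 168 of the 12767 genes in 211F 1 and at rank 8613 in WT 1. The 2 libraries of 211F were far apart, and 211F 2 lay between the WT libraries, so the groups overlapped. The difference of the group means was 2.69 ± 1.58 log2 units (SE), 0.75 without 211F 1 and 3.77 without WT 2. The summed smooth muscle and pericyte markers were also highest in 211F 1 (702 FPKM). Des and Cspg4 on that list were not, at 0.0176 and 0.0554 FPKM there. The part of these markers in the Ptgs2 level was not tested.

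Because FPKM is scaled to transcript length, the 2 cyclooxygenases can be set against each other within a library. Ptgs2 made up 21.8% (WT 1), 60.6% (WT 2), 93.6% (211F 1) and 49.3% (211F 2) of their summed FPKM. The sum itself was 33.0 (WT 1), 58.4 (WT 2), 458 (211F 1) and 56.9 FPKM (211F 2). Ptgs1 was the more abundant form in WT 1, both were about equal in 211F 2, and Ptgs2 was the more abundant in WT 2 and 211F 1. The more abundant form thus differed between the WT libraries themselves.

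**Figure D2:**
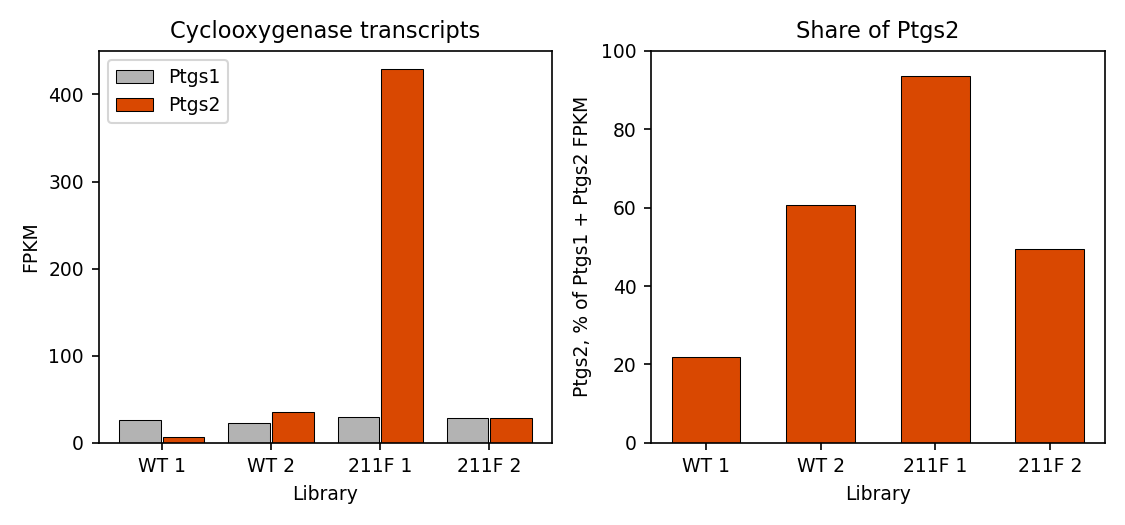
Left, FPKM of Ptgs1 and Ptgs2 in each library; right, Ptgs2 as a percent of the summed FPKM of both genes. Ptgs1 stays between 23.0 and 29.4 FPKM, while the share of Ptgs2 runs from 21.8% in WT 1 to 93.6% in 211F 1.

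Ptgs2 and Pla2g4a lie on chromosome 1 with their starts 138741 bases apart and are transcribed away from each other. Within 500 kb of the Ptgs2 start, 7 genes reached 0.5 FPKM in at least 1 library, and 6 of these were highest in 211F 1. Ptgs2 is among these 6 by choice, and 211F 1 was the highest library for 2857 of all 12767 genes tested. The window and the minimum were chosen after the values were seen, so nothing is read from the count. Ptgs2os is a noncoding gene that starts 68 bases from the Ptgs2 start on the other strand, inside the window printed above. It was at 0.644 (WT 1), 1.56 (WT 2), 3.58 (211F 1) and 0.920 FPKM (211F 2), the same order of libraries as Ptgs2. No annotated exon of Ptgs2os overlaps one of Ptgs2. Ptgs2os2, another noncoding gene 64917 bases to the other side, was at 0.719 (WT 1), 1.97 (WT 2), 5.25 (211F 1) and 0.0568 FPKM (211F 2). Of the 3 genes farther away, Tpr, a nuclear pore gene, was at 58.3 (WT 1), 84.6 (WT 2), 91.7 (211F 1) and 76.5 FPKM (211F 2), and Odr4 was highest in WT 2 (22.0 FPKM, against 20.7 in 211F 1). Prg4, the gene of the lubricant lubricin and the farthest of the 7 at 366134 bases, was low but had the same order of libraries as Ptgs2, at 0.0646 (WT 1), 0.554 (WT 2), 1.38 (211F 1) and 0.192 FPKM (211F 2). Exons of Tpr overlap those of Odr4 and Prg4 on the other strand, so reads of these 3 may be shared.

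**Figure D3:**
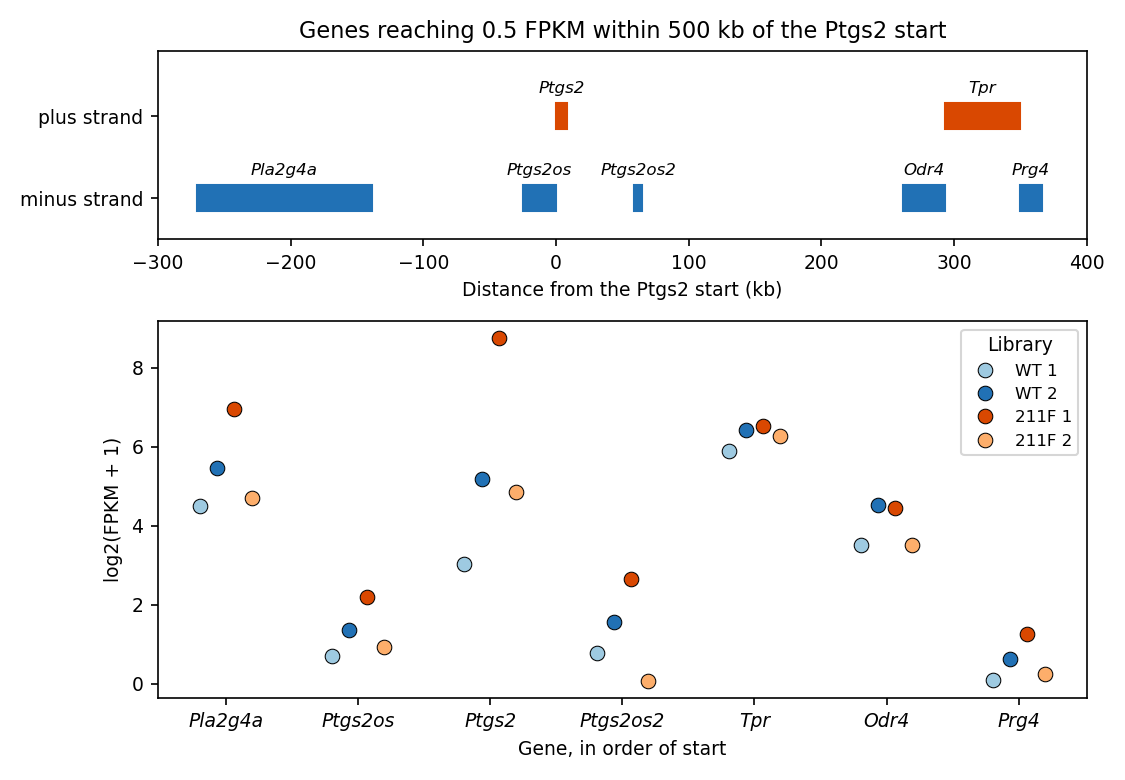
Top, genes within 500 kb of the Ptgs2 start that reached 0.5 FPKM, drawn to scale by distance from that start (kb) and by strand; bottom, their levels in the 4 libraries as log2(FPKM + 1). Each gene but Odr4 is highest in 211F 1 and second in WT 2, with smaller differences for Tpr, and Odr4 is highest in WT 2.

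Over all 11357 other protein-coding genes compared, Akap12, Hbegf, Cthrc1 and Hmga2 held places 2 to 5 by nearness of profile to Ptgs2. Nearness was the Euclidean distance over the 4 libraries after each gene's log2(FPKM + 1) was centred on its own mean. Hbegf, an EGF receptor ligand, was at 5.54 (WT 1), 18.6 (WT 2), 118 (211F 1) and 17.5 FPKM (211F 2). Akap12, a scaffold for protein kinase A, was at a distance of 0.88, with 3.40 (WT 1), 8.75 (WT 2), 108 (211F 1) and 10.5 FPKM (211F 2). Cthrc1, a secreted protein of matrix-producing cells, was listed at 0 in WT 1 and 211F 2, and reached 0.764 FPKM in WT 2 and 24.3 in 211F 1. Cthrc1 met the mean of 1 FPKM required for this comparison only through 211F 1. Hmga2, a chromatin protein of embryonic and tumour cells, was at 6.24 (WT 1), 18.9 (WT 2), 120 (211F 1) and 7.34 FPKM (211F 2); a gene on its other strand overlaps it. Pla2g4a came at place 93 by this measure. These 4 were highest in 211F 1, the library for which Ptgs2 was chosen, and the measure spans 4 libraries.

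**Figure D4:**
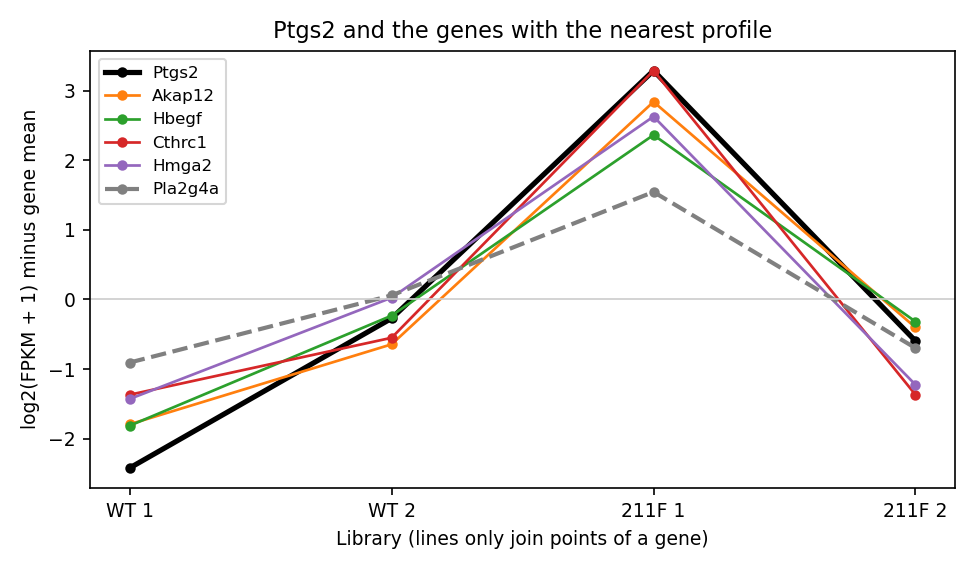
Profiles of Ptgs2, 4 of its nearest genes and Pla2g4a over the 4 libraries, as log2(FPKM + 1) minus each gene's mean; lines only join the points of a gene. All 6 genes peak in 211F 1, Pla2g4a with the lowest peak.

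Of the terminal synthases, Ptges was highest in WT 2 and Ptges3 was abundant in all 4 libraries. Ptges (ENSMUSG00000050737; chromosome 2, 30889471 to 30929863, minus strand) encodes the inducible membrane-bound PGE2 synthase that is often coupled to the Ptgs2 product. It was at 1.86 (WT 1), 79.5 (WT 2), 9.21 (211F 1) and 0.0167 FPKM (211F 2). The library highest for Ptgs2 was thus not the highest for Ptges: WT 2 held 8.63 times the level of 211F 1 and 42.7 times that of WT 1, and in 211F 2 the gene was near 0. Only 0.932% of the genes tested spanned a range as wide as that of Ptges. WT 2 stood at least 1 log2 unit above each other library in 4.54% of all genes tested. The genotype groups overlapped, and the difference was -2.24 ± 2.09 log2 units (SE; limma adjusted p = 0.9999), which became 0.17 without WT 2. The summed fibroblast markers were highest in WT 2 as well (1078 FPKM), although Thy1 and Lum on that list were highest in 211F 1. The part of these markers in the Ptges level was not tested.

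Ptges3 (ENSMUSG00000071072; chromosome 10, 128058954 to 128077272, plus strand) encodes a cytosolic PGE2 synthase that is also the p23 co-chaperone of Hsp90. It was the most abundant member in WT 1, WT 2 and 211F 2 and the second in 211F 1, at 170 (WT 1), 142 (WT 2), 205 (211F 1) and 174 FPKM (211F 2). Both 211F libraries lay above both WT libraries, although 211F 2 and WT 1 were close, and the difference was 0.28 ± 0.23 log2 units (SE; limma adjusted p = 0.9999), or 0.16 without WT 2. Ptges2, another PGE2 synthase that is not among the 10 genes, was at 21.1, 14.3, 11.8 and 14.3 FPKM in WT 1, WT 2, 211F 1 and 211F 2. Of the summed FPKM of the 3 PGE2 synthase genes, Ptges held 33.7% (WT 2), 4.07% (211F 1), 0.967% (WT 1) and 0.00887% (211F 2). Ptgis (ENSMUSG00000017969; chromosome 2, 167191805 to 167240604, minus strand), the prostacyclin synthase gene, was at most 0.0179 FPKM and was listed at 0 in 211F 2. That is below the level of 3 fragments in 1 kb, which was 0.0497 to 0.0910 FPKM in these libraries.

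The uptake gene Slco2a1 was abundant in 3 libraries, and the breakdown gene Hpgd was detected in 1. Slco2a1 (ENSMUSG00000032548; chromosome 9, 102988712 to 103096002, plus strand) encodes the prostaglandin transporter that brings PGE2 into cells for inactivation. It was at 28.8 (WT 1), 0.406 (WT 2), 76.9 (211F 1) and 50.2 FPKM (211F 2). Both 211F libraries lay above both WT libraries, and WT 2 stood far below the rest, 71.1 times under WT 1. WT 2 was at least 1 log2 unit below each other library in 4.42% of all genes tested. The difference was 3.29 ± 1.59 log2 units (SE; limma adjusted p = 0.9999). Without WT 2 it was 1.08. The 10 epithelial markers were lowest in WT 2 as well, and the endothelial markers were near 0 in all libraries; the part of the epithelial state in the Slco2a1 level was not tested.

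Hpgd (ENSMUSG00000031613; chromosome 8, 56294585 to 56321043, plus strand) encodes the dehydrogenase that begins the inactivation of PGE2. It was at 2.36 (WT 1), 0.0107 (WT 2), 0.0338 (211F 1) and 0 FPKM (211F 2). On its single annotated transcript of 1683 bases and the value of 1 fragment in each library, these correspond to about 139, 1.09, 2.18 and 0 fragments. Hpgd was therefore detected in WT 1. In the other libraries it was below 3 fragments, the level under which values are not told from 0 here. Slco2a1 and Hpgd, which act one after the other on PGE2, were thus above 1 FPKM together in WT 1 alone.

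Of the receptors for PGE2, Ptger4 (ENSMUSG00000039942; chromosome 15, 5206661 to 5244187, minus strand), a receptor that raises cAMP, was at 7.44 (WT 1), 4.44 (WT 2), 4.04 (211F 1) and 7.90 FPKM (211F 2). Each genotype held 1 library near 4 and 1 above 7 FPKM, and the difference was -0.02 ± 0.49 log2 units (SE; limma adjusted p = 0.9999), or -0.33 without WT 2. Ptger4 was lower in both libraries with a high sum of mesenchymal markers, WT 2 and 211F 1. Of these 10 markers, 5 were highest in WT 2, 4 in 211F 1 and 1, Snai2, in WT 1 (31.1 FPKM). Whether Ptger4 follows that state was not tested. Exons of Ptger4 overlap Ttc33 on the other strand, which was at 11.3, 24.2, 11.0 and 11.3 FPKM in WT 1, WT 2, 211F 1 and 211F 2, a different order. The sources used here do not say whether the authors' counting used strand, so reads of the 2 genes cannot be told apart where they overlap. Ptger2 (ENSMUSG00000037759; chromosome 14, 44988195 to 45003820, plus strand), the other receptor that raises cAMP, was at most 0.0569 FPKM and was listed at 0 in WT 1 and 211F 2. Within what this depth can show, Ptger4 was the cAMP-raising PGE2 receptor gene listed above 1 FPKM. Part of that level may be reads of Ttc33.

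Both genotypes were apart, with no overlap, for 3 of the 7 members above the filter (Ptgs1, Ptges3 and Slco2a1), each time with 211F higher. Over all genes tested the groups did not overlap in 26.8%, with 211F higher in 15.2% and lower in 11.6%. With 2 libraries a group, the smallest p of an exact two-sided permutation test is 0.333. The median difference was 0.26 log2 units for the 6 members other than Ptgs2 and 0.28 with Ptgs2, which was chosen by its level, against 0.03 over all 12767 genes; nothing is read from this. The 3 that were apart stayed apart with quantile normalization and with all libraries scaled to the same sum. The differences of Ptgs1 and Ptges3 were the smallest of the 3.

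**Figure D5:**
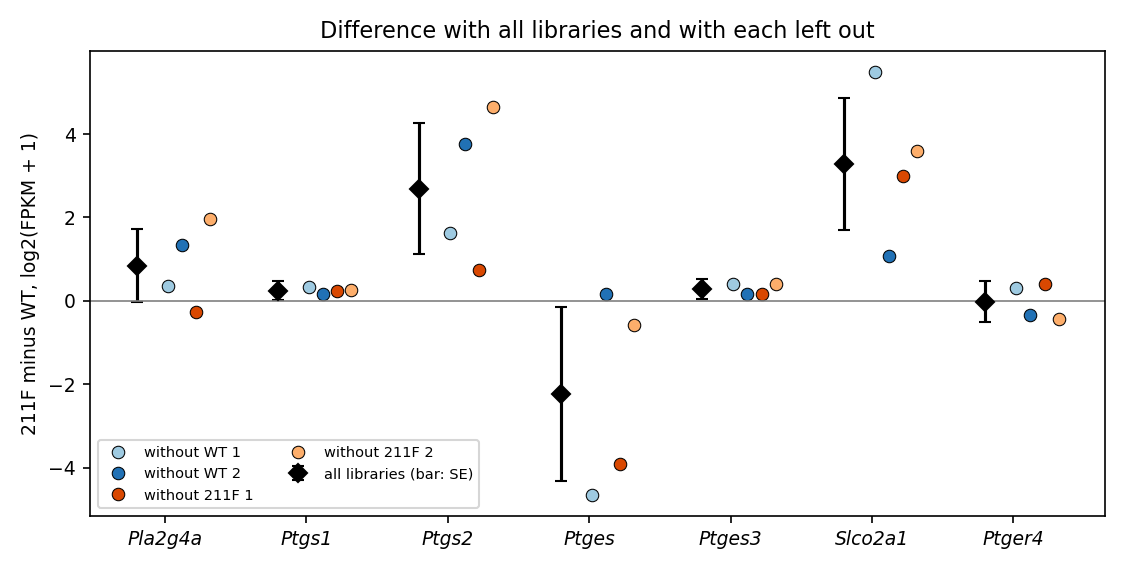
Difference of 211F minus WT for the 7 members above the filter, in log2(FPKM + 1), with all libraries (diamond, bar = SE) and with each library left out (coloured points). Pla2g4a and Ptger4 turn sign without 211F 1, Ptger4 also without WT 1, and Ptges turns without WT 2.

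The rest of the prostanoid pathway was read from lists of genes, none of which passed the adjusted limma test in either direction. Among 20 genes of other phospholipases and arachidonate supply, 9 were tested, 5 with a positive and 4 with a negative difference (median 0.12). Groups were apart for 2 of these, and for 26.8% of all genes tested. Fads2, a desaturase of arachidonic acid synthesis, was at 56.6 and 63.1 FPKM in the WT libraries and at 87.2 and 63.4 in those of 211F. Pla2g5, a secreted phospholipase, was apart only in name: it was at 9.37 FPKM in 211F 2 and at most 0.103 in the other libraries. Pla2g5 reached the filter only through 211F 2. Of 12 other synthase, reductase and export genes, 9 were tested, and 0 had groups apart (median 0.09). The most abundant of them, Akr1b3, an aldose reductase able to form PGF2α, was at 40.3, 119, 78.6 and 78.4 FPKM in WT 1, WT 2, 211F 1 and 211F 2.

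Of 8 other receptor genes only Ptger1 reached the filter, and its level is not reported here, so the PGE2 receptors are not ranked by level. Of 15 lipoxygenase and leukotriene genes 1 was tested: Lta4h, the leukotriene A4 hydrolase, was at 47.8, 37.5, 46.0 and 41.0 FPKM in WT 1, WT 2, 211F 1 and 211F 2.

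A further list held genes that respond to cAMP, the messenger of the Ptger2 and Ptger4 receptors. Of 14 such genes 13 were tested, and 3 were highest in 211F 1, 4 in WT 1, 4 in WT 2 and 2 in 211F 2. Of all 12767 genes tested, 2857 were highest in 211F 1, 2708 in WT 1, 3856 in WT 2 and 3346 in 211F 2. The groups were apart with 211F higher for 2 (Nr4a1 and Areg) and with 211F lower for 3 (Sik1, Per1 and Ppargc1a). Ppargc1a reached the filter only through WT 1 (4.24 FPKM), and WT 2 (0.370) was close to 211F 2 (0.319). Groups were apart in 26.8% of all genes tested, so nothing is read from these counts. The median difference of the list was -0.29. Areg, an EGF receptor ligand, was at 8.41, 0.315, 11.3 and 32.7 FPKM in WT 1, WT 2, 211F 1 and 211F 2, and Per1, a clock gene, was at 15.0, 14.2, 7.74 and 12.4.

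Genes that inflammatory signals induce together with Ptgs2 were mixed: of 20 listed, 18 were tested, 10 with a positive and 8 with a negative difference (median 0.14). Of the 18, 6 were highest in 211F 1, 7 in WT 2, 4 in 211F 2 and 1 in WT 1. Over all 12767 genes tested, 211F 1 was highest for 2857, WT 2 for 3856, 211F 2 for 3346 and WT 1 for 2708. Tnfaip3, an inhibitor of NF-kB signalling, was at 19.8 and 14.5 FPKM in the WT libraries and at 55.1 and 27.3 in those of 211F. Il11, a cytokine of the interleukin-6 family, was at 5.51 FPKM in 211F 1 and at most 0.492 elsewhere. Cxcl1, a neutrophil chemokine, went the other way in the library highest for Ptgs2, at 4.75 FPKM in 211F 1, compared with 114, 282 and 107 in the libraries WT 1, WT 2 and 211F 2. Nos2, the inducible nitric oxide synthase, was at 3.01 and 7.97 FPKM in the WT libraries and at 0.186 and 1.16 in those of 211F. The groups were apart for 5 genes with 211F higher (Il1a, Lif, Tnfaip3, Egr1 and Il11) and for 2 with 211F lower (Cxcl1 and Nos2). Over all genes tested they were apart in 26.8%, with 211F higher in 15.2% and lower in 11.6%. Il11 reached the filter only through 211F 1, and nothing is read from these counts.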

How the data were processed

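RNA libraries of 4 cultures of mouse PyMT mammary tumour cells were compared by genotype, 2 WT and 2 211F. The authors deposited FPKM values for 50679 Ensembl identifiers as 1 table without counts. The submitters' processing notes name TopHat2 2.0.13, DESeq2 and GRCm38. Which program made the FPKM values, whether it used strand and whether libraries were rescaled are not stated in them. Low values of 1971 long genes with 1 annotated transcript fell on steps, from which the value of 1 fragment in 1 kb was taken (0.0166 FPKM in WT 2 to 0.0303 in 211F 2).

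Values were analysed as log2(FPKM + 1). The 12767 genes whose mean reached 1 FPKM were tested with limma 3.58.1 in R 4.3.3 (two-sided, trended prior variance, Benjamini-Hochberg at 0.05), and the code was tested on simulated data. The code check required detection only where the simulated spread was smaller than in these data. Passing it is therefore no measure of power here. Positions are from GENCODE M21 on GRCm38; promoter sequences are RefSeq's for GRCm38.p6, with a window for 9 of the 10 genes. Symbols matched 50369 identifiers. The members and lists were chosen with earlier results of these data known. Besides the members, named genes were list members with groups apart, up to 4 of highest mean in a list, and the 5 genes nearest to Ptgs2, of which 4 are reported here. The neighbours of Ptgs2, the overlapping gene Ttc33 and the genes of the closing observations were named after their values were seen. Alternatives were other pseudocounts, filters and scalings, a replicate block, and leaving out each library.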

Additional observations from a re-analysis of the deposited data

How the results depend on the processing

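limma called 0 genes in all 13 alternatives, with a smallest adjusted p of 0.5303 (without WT replicate 1). Genes at an unadjusted p under 0.05 numbered 241, against 745 without a filter on low values, 142 with the replicate block and 843 without WT replicate 1. Of 91 differences of the 7 members above the filter under the alternatives, 87 kept their sign. Other filters, the replicate blocks and limma without a trend leave each estimate at its main value, so those differences could not turn. Ptgs2, chosen by its level, is among the 7. The count of 87 is thus no measure of stability. The 4 that turned were Ptger4 without WT 1 (0.30) and without 211F 1 (0.39), Pla2g4a without 211F 1 (-0.27) and Ptges without WT 2 (0.17); with a library left out these genes ranged from -0.43 to 0.39, -0.27 to 1.97 and -4.64 to 0.17. Groups that do not overlap cannot turn when a library is left out. The members with groups apart numbered 3, and 4 to 6 with a library left out, where 57.9% to 70.8% of all genes were apart. Same-numbered libraries deviated with r = -0.465 across 12767 genes, so the numbers do not show a pairing. With the replicate block 0 genes were called, and with crossed numbers, added after seeing the data, 0 were called and 520 had an unadjusted p under 0.05. A fit with a lone library in a group assumes that it varies like the others. Leaving out 1 library moved the difference of Slco2a1 from 3.29 to between 1.08 (without WT 2) and 5.49 (without WT 1), and that of Ptgs2 from 2.69 to between 0.75 (without 211F 1) and 4.64 (without 211F 2). Fold changes of low genes are understated on the log2(FPKM + 1) scale, and values under 3 fragments are not told from 0.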

Other observations

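Some pathway genes outside the 10 were high in a single library; they were chosen after their values were seen. Mgll, a lipase that frees arachidonic acid from an endocannabinoid, was at 12.5 FPKM in 211F 1 and at most 0.359 in the other libraries. Ptgs2 and Pla2g4a were also highest in 211F 1. An antisense gene overlaps its exons and was at most 0.0344 FPKM. Ltc4s, the leukotriene C4 synthase, and Ephx2, the soluble epoxide hydrolase, were highest in WT 2, at 2.04 and 2.31 FPKM, against at most 0.0505 and 0.163 elsewhere. WT 2 is also the library in which Ptges was highest. Ccl2, a monocyte chemokine, reached 527 FPKM in WT 2, and its highest level in the other libraries was 6.68. Mgll reached the filter only through 211F 1. Neither Mgll nor Ccl2 passed the test (limma adjusted p = 0.9999), and nothing is read from this, as both were chosen by their values. Ltc4s and Ephx2 were below the filter.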
